A study of Mus musculus with 7 samples.

Results

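The non-sterol lipid metabolism genes described here are 105 of the 3226 coding genes with a biological process term in the authors' deposited table of transcripts that differ between wild-type and *Ctcf*-cKO testis. They were chosen by Gene Ontology annotation. A gene was taken when 1 of its process terms held the words lipid, fatty acid, sphingo or triglyceride, and was dropped when any process term named steroids, sterols, androgens, luteinizing hormone or gonadotropins or when a cellular component term named lysosomes. All 105 have 1 row each, 78 of them in the table's class Complex and 27 in its class Coding. The word metabolism fits 88 of them, which have a lipid term naming metabolism, biosynthesis, breakdown or oxidation. The other 17, of which 6 were lower and 11 higher in *Ctcf*-cKO, have other lipid terms, mostly for transport. *Dnm3os*, a host gene of microRNAs without a protein, is among the 105 because the table places its row in the class Complex.

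Each array was hybridized with RNA of 1 mouse, from 3 wild-type and 4 *Ctcf*-cKO males aged 12 to 15 weeks, on the mouse transcriptome array of Affymetrix. The *Ctcf*-cKO males were Stra8-iCre-*Ctcf*f/Δ, with 1 copy of *Ctcf* deleted from the start and the other floxed, and Cre driven by the *Stra8* promoter in spermatogonia and pre-leptotene spermatocytes. By the study's account, Sertoli cells, Leydig cells and spermatogonial cells keep CTCF in this model. Wild-type littermates had no, 1 or 2 floxed copies, written as *ctcf*wt/wt, *ctcf*wt/f and *ctcf*f/f, and the background of the colony is written C56BL/6J in the methods. The sample protocols name seminiferous tubules freed of the tunica albuginea as the source of RNA, and the sample titles name testes. The table gives an average log2 signal per genotype and no value of a single mouse, so every value below is a deposited average or a difference of deposited averages, on the log2 scale unless called a fold or a sum. Where 2 averages stand without a genotype, that of wild-type precedes that of *Ctcf*-cKO. *Ctcf* itself has 0 rows.

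Lipids have several jobs in the testis. Germ cells build membranes rich in very-long-chain polyunsaturated fatty acids, whose making needs desaturases and elongases, and carry ceramides with such chains. Sertoli cells take up the remains of dying germ cells and the residual bodies of spermatids and can burn their fatty acids by β-oxidation, while phospholipases and flippases of the sperm head take part in the acrosome reaction and in the activation of the egg.

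Of the 105 genes, 75 (71.4%) were higher and 30 (28.6%) were lower in *Ctcf*-cKO, whereas of the 3226 coding genes with a process term 40.0% were higher and 60.0% lower. Every row of the table is past a linear fold of 2, so these counts tell how the changed genes divide by direction and not how many lipid genes changed. Past a fold of 3 were 28 higher genes (26.7%) and 5 lower genes (4.76%), against 10.8% and 8.28% of the coding genes with a process term. Within each direction, 37.3% of the higher and 16.7% of the lower genes were past it, against 26.9% and 13.8% in that background. The median difference of the higher genes was 1.48 on the log2 scale, against 1.34 for the higher coding genes with a process term, and that of the lower genes was -1.27 against -1.30. The differences of the 105 ran from -2.05 to 2.33. Direction here is the sign of the deposited difference, and the zero point of the array cannot be checked from rows selected for their fold. The median difference of all rows of the table is -1.15, and with it taken as 0, 10 of the 30 lower genes came out above 0. Of the 1937 lower coding genes with a process term 1491 were still below 0, and no higher gene can change sign by this shift. The 10 are *Agpat6*, *Gdpd1*, *Osbp2*, *Crat*, *Pla2g2c*, *Ppap2a*, *Lpin1*, *Atp8b3*, *Gykl1* and *Gpat2*. All rows were selected for their fold, so the median of -1.15 is not that of the array. The shift moves every gene alike and turns only lower genes above -1.15, so counts after re-centring do not test direction. All 105 had a log2 average of at least 6.04 in 1 genotype. In bulk tissue, fewer cells of a type and less RNA per cell cannot be told apart.

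Genes that mark the cell types of the testis were looked up as well. Only those past the fold limit of the table can have a row, and the sums below leave out genes without a row. Where all rows of a list go the same way, its sum must therefore differ by at least that limit. Of 8 genes of Leydig cells, 7 had a row and all 7 were higher, with linear signals that sum to 7174 in wild-type mice and 26807 in *Ctcf*-cKO. *Cyp17a1* was the brightest in each genotype and *Insl3* had no row. For Sertoli cells, 10 of 12 genes had a row and all 10 were higher, with a sum of 5979 in wild-type against 17130 in *Ctcf*-cKO. *Clu* was brightest in wild-type and *Ctsl* in *Ctcf*-cKO, and *Amh* and *Rhox5* had no row. Of 6 genes of peritubular myoid cells, *Tagln*, *Myh11* and *Acta2* were higher, *Actg2* was lower, and *Cnn1* and *Des* had no row. The difference of *Actg2* was -1.08, and re-centring turns the sign of every lower gene above -1.15, so it does not test this decrease. The sum of the 4 genes with a row was 3357 in wild-type testis and 4018 in *Ctcf*-cKO. *Actg2* was brightest in wild-type and *Acta2* in *Ctcf*-cKO.

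Macrophage genes with a row were 5 of 11, all higher, with a sum of 839 in wild-type mice and 2630 in *Ctcf*-cKO. *Mrc1* was the brightest of them in wild-type and *Lyz2* in *Ctcf*-cKO, and *Emr1*, *Cd14*, *Cx3cr1*, *Cd163*, *C1qa* and *C1qc* had no row. *Kdr* and *Cdh5*, the 2 of 8 endothelial genes with a row, were higher, with a sum of 208 in wild-type against 454 in *Ctcf*-cKO and *Cdh5* brightest in each. None of 7 adipocyte genes had a row. *Kit*, the only 1 of 9 genes of spermatogonia with a row and also known from Leydig cells, averaged 7.81 in wild-type testis and 10.09 in *Ctcf*-cKO on the log2 scale.

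Later germ cells were marked by lower genes. Of 10 genes of primary spermatocytes, 8 had a row and all 8 were lower, 6 of them also after re-centring, and their sum was 7450 in wild-type mice and 2928 in *Ctcf*-cKO, with *Piwil1* brightest in each and no row for *Sycp3* and *Mael*. Of 10 genes of round spermatids, 9 had a row and all 9 were lower, 8 of them after re-centring, with a sum of 11470 in wild-type against 4631 in *Ctcf*-cKO, *Spert* brightest in each and no row for *Dkkl1*. Of 11 genes of elongating spermatids 8 had no row, and the 3 others were lower, 1 of them after re-centring, with a sum of 5990 in wild-type testis and 2731 in *Ctcf*-cKO and *Akap4* brightest in each. These sums rest largely on the brightest probes of each list and only on rows past the fold limit. They serve only to set the genotypes side by side within a list and do not measure how a cell type changed. Levels of different genes come from different probes, so the brightest gene need not be the most abundant. The part of these cell types in the values of the lipid genes was not tested.

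Every gene of fatty acid synthesis that had a row was higher in *Ctcf*-cKO. From a list of 32 genes for synthesis, elongation and desaturation, 11 had a coding row, 8 of them among the 105, and the median difference of the 11 was 1.62. *Fads1*, a desaturase that makes polyunsaturated fatty acids such as arachidonic acid, averaged 9.04 in wild-type mice and 11.37 in *Ctcf*-cKO on the log2 scale. Its difference of 2.33, a fold of 5.03, was the largest among the 105. *Fads2*, the desaturase that acts before *Fads1* in the same pathway, averaged 10.18 in wild-type against 12.40 in *Ctcf*-cKO, a fold of 4.66. *Scd2*, which makes monounsaturated fatty acids, averaged 10.30 and 12.34 in the same order, a fold of 4.11. These desaturases were thus more than 4 times as high in *Ctcf*-cKO.

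Other enzymes of the list were higher as well. *Elovl5*, which lengthens polyunsaturated chains between the desaturation steps, had averages of 10.23 in wild-type testis and 11.76 in *Ctcf*-cKO, a fold of 2.89. For *Acly*, which makes cytosolic acetyl-CoA from citrate, the averages were 8.39 and 10.01, a fold of 3.07. *Fasn*, the synthase of palmitate, averaged 8.67 in wild-type mice and 9.91 in *Ctcf*-cKO, a difference of 1.24. Genes of palmitate synthesis and of polyunsaturated chains were thus higher in the same genotype, although only 11 of the 32 listed genes have a row. *Ptplad1*, a dehydratase of the elongation cycle, and *Thrsp*, a gene of lipogenesis, had differences of 1.05 and 1.10. The 3 other genes of the list, which the annotation rule did not take, were *Scd1* (8.31 in wild-type against 10.90 in *Ctcf*-cKO), *Hsd17b12* (7.98 and 9.76) and *Tecr* (9.58 and 10.85), and all were higher.

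Uptake and activation of fatty acids held genes of each direction. In a list of 55 genes, 16 had a coding row, 12 higher and 4 lower, of which 3 stayed lower after re-centring, and 7 of the 16 are among the 105. The acyl-CoA synthetases of the bubblegum family parted. *Acsbg2*, known for its expression in testis, averaged 10.07 in wild-type testis and 8.58 in *Ctcf*-cKO, a difference of -1.49 that was -0.34 after re-centring. *Acsbg1* averaged 9.81 in wild-type mice and 11.68 in *Ctcf*-cKO, a difference of 1.87. *Acsf2*, another acyl-CoA synthetase, had averages of 7.50 and 9.33, a difference of 1.83. Of the synthetases outside the annotation rule, *Acsl4*, *Acss1* and *Acss3* were higher, with differences of 1.36, 1.33 and 2.07, and *Acsl1* had a difference of -1.04 that turned positive after re-centring. *Fabp5*, a carrier of fatty acids in the cytosol, averaged 6.01 in wild-type against 7.33 in *Ctcf*-cKO. The transporters *Slc27a1* and *Slc27a6* and the acyl-CoA binding protein *Dbi* had differences between 1.20 and 1.26. Among listed genes outside the annotation rule, *Cd36*, a receptor that takes up fatty acids, averaged 7.30 in wild-type testis and 9.26 in *Ctcf*-cKO, and the fatty acid carrier *Fabp12* averaged 7.68 and 6.22. *Fabp3*, the carrier known from heart muscle, averaged 10.61 and 12.15.

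Mitochondrial β-oxidation was largely on the higher side. Its list of 35 genes had 17 coding rows, 15 higher and 2 lower, with a median difference of 1.36, and 11 of the 17 are among the 105. The entry of long chains into mitochondria parted by isoform. *Cpt1a*, the carnitine palmitoyltransferase known from liver, averaged 8.60 in wild-type mice and 10.43 in *Ctcf*-cKO, a difference of 1.83. *Cpt1b*, the form known from muscle, averaged 10.27 and 9.01, a difference of -1.26 that was -0.12 after re-centring. *Crat*, which moves acetyl groups between carnitine and CoA, averaged 11.33 in wild-type against 10.24 in *Ctcf*-cKO, a difference of -1.09 that was 0.05 after re-centring. By the deposited averages *Cpt1b* and *Crat* were thus lower and *Cpt1a* higher, with the lower genes close to the median of all rows.

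Inside the mitochondrion, each step of the cycle had a higher gene. *Acadm*, the dehydrogenase of medium chains, averaged 7.97 in wild-type testis and 9.73 in *Ctcf*-cKO, a fold of 3.39. *Echs1*, the hydratase of the next step, averaged 7.61 and 9.34, a fold of 3.32. *Hadh*, the dehydrogenase that follows, had averages of 8.70 in wild-type mice and 10.46 in *Ctcf*-cKO, a fold of 3.39. Each of these 3 genes was thus more than 3 times as high. *Acaa2*, a thiolase that releases acetyl-CoA at the end of the cycle, averaged 8.30 and 10.41, a fold of 4.32. *Eci2* and *Decr1*, which bring unsaturated chains into the cycle, had differences of 1.58 and 1.21, and *Acadsb*, for short branched chains, 1.34. *Pdk4*, a kinase that turns off pyruvate dehydrogenase, averaged 6.34 in wild-type against 7.67 in *Ctcf*-cKO. The 6 listed genes outside the annotation rule were all higher, with *Acadl*, the dehydrogenase of long chains, at 7.91 in wild-type testis and 9.86 in *Ctcf*-cKO.

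Peroxisomal oxidation and ether lipids had rows for 6 of 33 listed genes, all higher, with a median difference of 1.32. *Abcd3*, a transporter of the peroxisomal membrane, averaged 8.03 in wild-type mice and 9.57 in *Ctcf*-cKO. *Phyh*, which starts the breakdown of phytanic acid, averaged 7.12 and 8.62, and *Amacr*, a racemase of branched acyl-CoAs, 6.41 and 7.45. *Agmo*, which cleaves ether lipids, averaged 4.96 in wild-type against 6.48 in *Ctcf*-cKO. All 4 of these were higher by at least 1.04 on the log2 scale. *Far2*, a fatty acyl-CoA reductase outside the annotation rule, was higher at 6.14 and 7.19.

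The eicosanoid and oxylipin genes with a row were all higher too, against 40.0% higher among the coding genes with a process term. Of 52 listed genes 12 had a row, with a median difference of 1.54, and 2 of them are among the 105. *Ptgds*, a prostaglandin D synthase, averaged 10.13 in wild-type testis and 11.89 in *Ctcf*-cKO, a fold of 3.39. *Hpgd*, which inactivates prostaglandins, averaged 8.07 and 9.81, a fold of 3.34. A gene that makes prostaglandins and a gene that removes them were thus higher in the same genotype. Outside the annotation rule, *Ephx1*, an epoxide hydrolase, averaged 10.20 in wild-type mice and 12.34 in *Ctcf*-cKO, and *Ptgr1*, a prostaglandin reductase, 7.75 and 9.74.

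Triglyceride synthesis and lipid droplets made a group with more lower than higher genes, 8 of 12 rows from a list of 41, and 7 of the 8 came out above 0 after re-centring. That division is near the 60.0% lower among all coding genes with a process term, and the median difference was -1.02. Glycerol phosphate acyltransferases, which take the opening step, parted. *Gpam*, the mitochondrial enzyme known from liver, averaged 7.70 in wild-type against 9.34 in *Ctcf*-cKO, a difference of 1.64. *Agpat6*, now named *Gpat4* and found in the endoplasmic reticulum, averaged 11.09 and 9.96, a difference of -1.13 that was 0.02 after re-centring. *Gpat2*, a mitochondrial enzyme known from spermatocytes, averaged 8.22 in wild-type testis and 7.22 in *Ctcf*-cKO, a difference of -1.0 that was 0.15 after re-centring. So *Gpam* was higher and *Agpat6* and *Gpat2* were lower by the deposited averages. Lower genes just past the fold limit of the table, such as these 2, lie close to the median of all rows by its selection.

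Later steps repeated that split. *Agpat4*, which adds another acyl chain, averaged 7.79 in wild-type mice and 9.19 in *Ctcf*-cKO. *Lpin1*, a phosphatidate phosphatase that also acts in gene regulation, averaged 10.71 and 9.65, a difference of -1.06 that was 0.08 after re-centring. Sources of glycerol phosphate differed as well. *Gpd1*, the cytosolic dehydrogenase that makes it from a product of glycolysis, averaged 7.88 in wild-type against 9.51 in *Ctcf*-cKO, and *Gykl1*, a relative of glycerol kinase, 9.21 and 8.20, which re-centring turned to 0.14. Among the listed genes outside the annotation rule, *Gk2*, a glycerol kinase of testis, averaged 12.26 in wild-type testis and 10.94 in *Ctcf*-cKO and was the 1 gene of the list still lower after re-centring. *Dgat2*, which makes triglyceride, averaged 10.38 and 9.35, and *Gpd2*, the mitochondrial dehydrogenase of glycerol phosphate, 10.98 and 9.95. *Gk5*, also outside the annotation rule, was higher, at 6.83 in wild-type testis and 7.87 in *Ctcf*-cKO.

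Neutral lipases, listed together with the acid lipase *Lipa*, had 7 rows from a list of 48, 5 higher and 2 lower, 1 of them after re-centring. The median difference was 1.66, and 5 of the 7 rows are of genes outside the annotation rule. *Ces1d*, a carboxylesterase that can split triglycerides, averaged 7.37 in wild-type mice and 9.27 in *Ctcf*-cKO, a fold of 3.73. *Lipf*, known as gastric lipase, averaged 7.01 and 5.81, a difference of -1.20 that was -0.05 after re-centring. These are the 2 lipases of the list among the 105, and *Lipf* lay close to the median of all rows. Outside the annotation rule, *Lipg*, known as endothelial lipase, averaged 8.05 in wild-type against 10.88 in *Ctcf*-cKO, and *Lipa*, the acid lipase of lysosomes, 7.23 and 9.62. *Lipe*, the hormone-sensitive lipase that spermatogenesis needs, averaged 9.84 and 8.80, a lower value that turned positive after re-centring.

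Phospholipases gave the largest lower member. In a list of 64 genes for phospholipases A, B and D and enzymes of lysophospholipids, 17 had a row, 10 lower and 7 higher, and 7 of the lower ones stayed so after re-centring. That division is again near the 60.0% lower in the background, and the median difference was -1.12. *Gdpd4*, of the glycerophosphodiester phosphodiesterase family, averaged 9.61 in wild-type testis and 7.56 in *Ctcf*-cKO, and its difference of -2.05, a fold of 4.14, was the lowest among the 105. *Gdpd1* of the same family averaged 10.81 and 9.68, a difference of -1.13 that was 0.02 after re-centring. *Plb1*, a phospholipase B, averaged 9.48 in wild-type mice and 7.92 in *Ctcf*-cKO, a difference of -1.56. After re-centring *Gdpd4* was at -0.90 and *Plb1* at -0.42. *Lpcat2b*, a lysophospholipid acyltransferase, averaged 10.74 and 9.25. *Pld6*, a protein of the mitochondrial surface with a part in making piRNAs, averaged 9.15 in wild-type against 7.93 in *Ctcf*-cKO, and *Hrasls*, now named *Plaat1*, 8.68 and 7.47. After re-centring the differences of these 3 were -0.34, -0.07 and -0.06, the last 2 close to 0.

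Secreted and cytosolic phospholipases A2 parted. *Pla2g2c*, of the secreted kind, averaged 8.52 in wild-type testis and 7.45 in *Ctcf*-cKO, a difference of -1.07 that was 0.07 after re-centring. *Pla2g4a*, the cytosolic enzyme that frees arachidonic acid for eicosanoids, averaged 5.99 and 7.61, a difference of 1.62. *Pld3*, a relative of phospholipase D, averaged 8.96 in wild-type mice and 10.53 in *Ctcf*-cKO. The higher genes of this list thus include the supplier of arachidonic acid. *Mboat2*, a lysophospholipid acyltransferase, averaged 7.69 and 8.93. *Enpp2*, which is autotaxin and makes lysophosphatidic acid, averaged 7.56 in wild-type against 8.69 in *Ctcf*-cKO, and *Gpcpd1*, which splits glycerophosphocholine, 8.10 and 9.15.

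The phospholipase C list had 4 rows from 18 genes, 2 lower and 2 higher, with a median difference of -0.18. *Plcz1*, the sperm factor that sets off calcium waves in the egg, averaged 10.59 in wild-type testis and 8.92 in *Ctcf*-cKO, a fold of 3.18. *Plcd4*, which takes part in the acrosome reaction, averaged 9.26 and 7.73, a fold of 2.89. *Plcb4*, an isoform that acts behind G protein-coupled receptors, averaged 7.93 in wild-type mice and 9.10 in *Ctcf*-cKO. The 2 lower genes are those with known tasks at fertilization, and their differences after re-centring were -0.52 and -0.38. *Plce1*, which the annotation rule did not take, was higher, at 6.95 and 8.12.

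Phospholipid synthesis had 9 rows from 39 listed genes, 5 higher and 4 lower, 2 of them after re-centring, with a median difference of 1.03. *Cds1*, which makes CDP-diacylglycerol for phosphatidylinositol and cardiolipin, averaged 9.91 in wild-type against 8.27 in *Ctcf*-cKO, a difference of -1.64 that was -0.49 after re-centring. Genes of the choline and ethanolamine routes went the other way. *Pcyt1b*, a transferase of phosphatidylcholine synthesis, averaged 5.93 and 7.46, and *Etnk2*, an ethanolamine kinase, 7.90 and 9.52. Lipid phosphate phosphatases parted. *Ppap2b* averaged 7.90 in wild-type testis and 9.85 in *Ctcf*-cKO, a fold of 3.86, and *Ppap2a* averaged 10.35 and 9.28, a difference of -1.07 that was 0.07 after re-centring. Kinases and phosphatases of phosphoinositides had 7 rows from 62 listed genes, 5 higher and 2 lower with a median difference of 1.23, and 0 of them are among the 105. *Tpte*, a phosphatase known from testis, was lower at 7.62 in wild-type mice and 5.98 in *Ctcf*-cKO, and *Ocrl*, an inositol phosphatase, was higher at 7.05 and 8.81.

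Sphingolipid genes held 17 rows from a list of 71, 12 higher and 5 lower with the 5 lower also after re-centring, and the median difference was 1.33. Ceramide synthases, which attach acyl chains of different length to the sphingoid base, parted by isoform. *Cers3*, which makes the ceramides with the longest chains in testis and skin, averaged 10.47 in wild-type against 9.23 in *Ctcf*-cKO, a difference of -1.24 that was -0.09 after re-centring. *Cers6*, which prefers palmitoyl chains, averaged 7.53 and 9.12, a difference of 1.59. *Cers5*, with the same preference, averaged 8.44 in wild-type testis and 9.92 in *Ctcf*-cKO, and *Cers2*, which uses very long saturated chains, 7.55 and 8.88. *Cers3* was therefore the only lower ceramide synthase with a row, and after re-centring it lay close to the median of all rows.

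*Fa2h*, which puts a hydroxyl group on the fatty acids of sphingolipids, moved with *Cers3* and averaged 9.50 in wild-type mice and 8.23 in *Ctcf*-cKO, a difference of -1.27 that was -0.12 after re-centring. *Asah2*, a neutral ceramidase, averaged 6.78 and 8.36, a difference of 1.58. *B4galnt1*, which makes complex gangliosides and without which mouse spermatogenesis fails, averaged 7.65 in wild-type against 8.66 in *Ctcf*-cKO. *Smpdl3b*, a relative of acid sphingomyelinase, had the same difference of 1.01. Outside the annotation rule, lysosomal enzymes of the list included *Asah1*, at 7.20 in wild-type mice and 8.93 in *Ctcf*-cKO, and *Arsa*, at 9.0 and 7.81, which moved apart. *Smpd5*, of the sphingomyelinase family, was lower as well, at 10.19 in wild-type mice and 8.90 in *Ctcf*-cKO.

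Lipoproteins, lipid transfer proteins and flippases formed the longest list, with 27 rows from 102 genes. Of these rows 16 were higher and 11 lower, 9 of them after re-centring, and the median difference was 1.08. The 11 genes that meet the annotation rule divided otherwise, with 6 lower, 4 of them after re-centring, and 5 higher. Their median difference was -1.02. The 16 rows outside the rule were 5 lower and 11 higher. *Abca17*, an ABC transporter known from testis, averaged 9.49 in wild-type against 7.66 in *Ctcf*-cKO, a fold of 3.56. Its relatives *Abca14*, *Abca15* and *Abca16*, which the annotation rule did not take, were lower too, with differences of -1.81, -1.89 and -1.90. *Abca1*, which loads lipids onto apolipoproteins, averaged 8.85 and 10.96 and so went the other way. *Apoh*, a phospholipid-binding plasma protein, averaged 8.81 in wild-type testis and 7.10 in *Ctcf*-cKO, a fold of 3.27, whereas *Apoe*, outside the annotation rule, averaged 8.39 and 10.12. Both ABC transporters and apolipoproteins thus had genes of each direction.

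Flippases, which move phospholipids to the inner leaflet of a membrane, parted as well. *Atp8b5*, known from the acrosomal region of spermatids, averaged 9.20 in wild-type mice and 7.66 in *Ctcf*-cKO, a difference of -1.54. *Atp8b3*, known from the sperm acrosome, averaged 12.28 and 11.26, a difference of -1.02 that was 0.12 after re-centring. *Atp8b2* averaged 7.84 in wild-type against 9.21 in *Ctcf*-cKO, a difference of 1.37. So *Atp8b5* was lower and *Atp8b2* higher, and after re-centring *Atp8b5* was at -0.40. *Atp8a2*, a flippase known from nerve cells, averaged 8.70 and 7.23, and *Tmem30c*, of the family of flippase subunits and outside the annotation rule, 9.25 and 7.40. The scramblase *Ano6* averaged 7.12 in wild-type testis and 8.49 in *Ctcf*-cKO.

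The same list holds carriers of lipids between membranes and lipoproteins. *Pltp*, the phospholipid transfer protein of plasma, averaged 8.03 in wild-type mice and 9.59 in *Ctcf*-cKO. *Lsr*, a receptor of lipoproteins, averaged 7.20 and 8.80. *Osbpl11*, an oxysterol-binding protein relative, averaged 8.51 in wild-type against 9.86 in *Ctcf*-cKO, while *Osbp2* of the same kind averaged 10.99 and 9.89, a difference that was 0.04 after re-centring.

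Regulators of lipid metabolism had 7 rows from 52 listed genes, 5 higher and 2 lower, both above 0 after re-centring, with a median difference of 1.12. *Irs1*, an adaptor of the insulin receptor, averaged 5.43 in wild-type testis and 7.20 in *Ctcf*-cKO, a fold of 3.41. The adiponectin receptors *Adipor1* and *Adipor2* averaged 8.72 and 7.71 in wild-type mice and 9.75 and 8.89 in *Ctcf*-cKO. Insulin and adiponectin signalling thus each had a higher gene. *Mlxipl*, a transcription factor that answers to glucose, was higher at 7.51 and 9.07, and *Prkag2*, a subunit of AMP-activated protein kinase, averaged 9.52 in wild-type against 8.48 in *Ctcf*-cKO, which re-centring turned above 0.

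**Figure D1:**
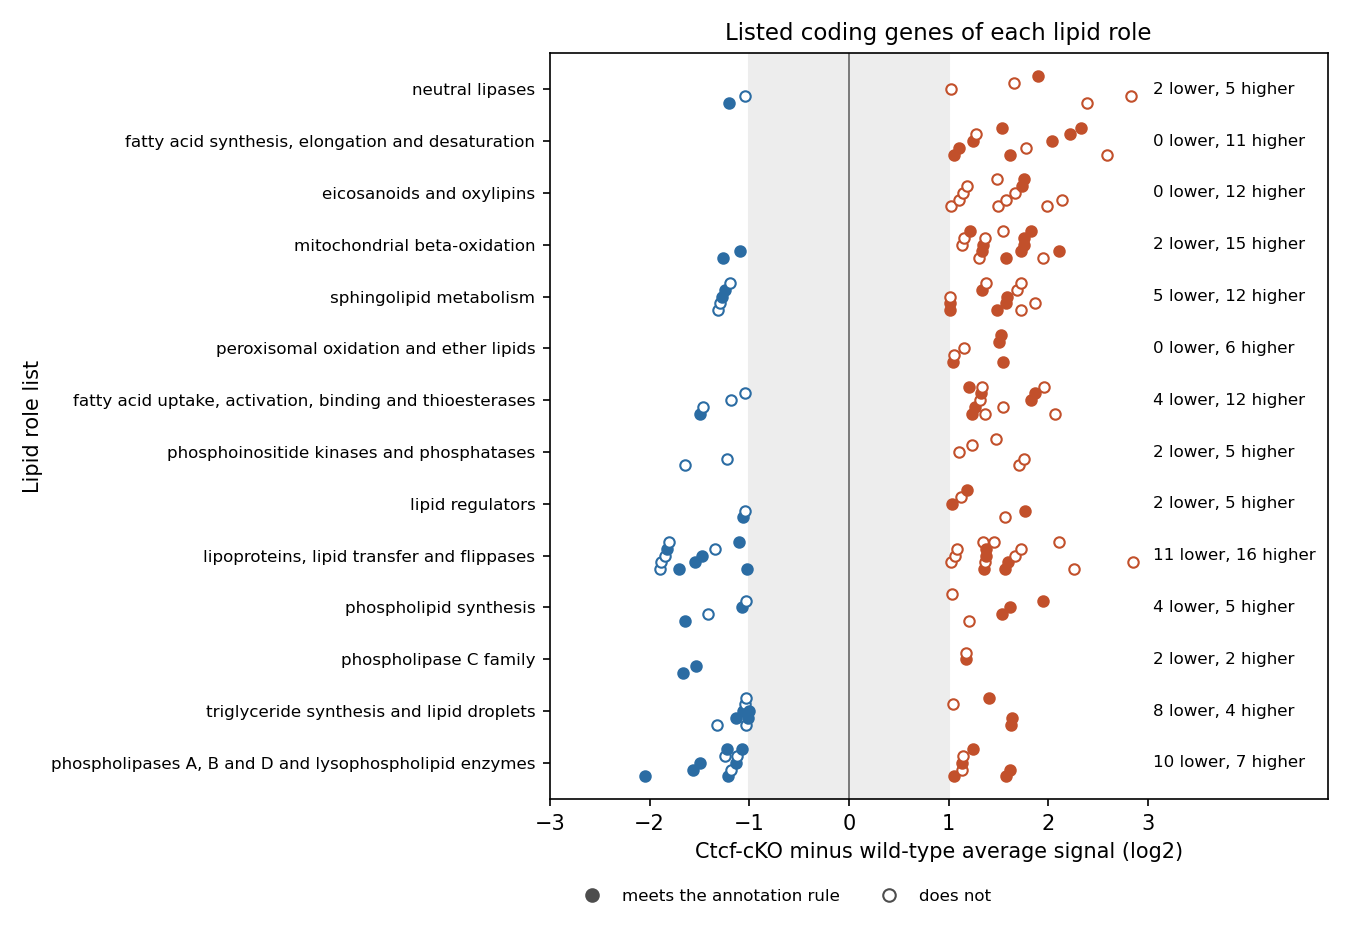
Difference of the deposited average log2 signal, *Ctcf*-cKO minus wild-type, for every coding gene with a row in the 14 lists of lipid roles. Filled points are genes that meet the annotation rule and open points are genes that do not. The grey band holds no gene because the table is limited to a linear fold of 2. With the median of all rows taken as 0, lower genes above -1.15 change sign, among them 7 of the 8 of triglyceride synthesis, and no higher gene does.

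The lists of roles hold 83 of the 105 genes. Of the 22 others 19 were higher and 3 lower, and the 3 were at -0.34, -0.27 and -0.17 after re-centring, in the order given here. *Pde3b*, which degrades cyclic AMP and restrains lipolysis in fat cells, averaged 9.30 in wild-type testis and 7.82 in *Ctcf*-cKO. *Gltpd1*, a transfer protein of ceramide phosphate now named *Cptp*, averaged 9.29 and 7.87, and *Rbl1*, a relative of the retinoblastoma protein, 8.27 and 6.96. Enzymes against peroxides had the largest folds among the 19 higher ones. *Gpx1*, a glutathione peroxidase, averaged 8.95 in wild-type mice and 10.86 in *Ctcf*-cKO, a fold of 3.76, and *Mgst1*, a microsomal glutathione transferase, 7.52 and 9.33, a fold of 3.51. *Mfsd2a*, which carries lysophosphatidylcholine with polyunsaturated chains into cells, averaged 7.18 and 8.93, a fold of 3.36. *Abcc1*, an export pump for glutathione conjugates and leukotrienes, averaged 8.29 in wild-type against 9.89 in *Ctcf*-cKO. *Cyb5a*, a cytochrome that feeds electrons to desaturases, averaged 7.69 and 8.97 and so was higher like the desaturases. The remaining 14 had differences from 1.02 to 1.65.

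Genes were also grouped into families by the stem of their symbols. Of 13 such families with more than 1 gene among the 105, 8 had both lower and higher members. These 8 held 9 lower and 10 higher genes. How often families of other coding genes hold both directions was not counted. Re-centring moves every gene alike, so it does not test whether a family parts. After re-centring, 5 of the 8 still had a lower member, because its difference was below the median of all rows. Those 5 are the families of *Acsbg2*, *Atp8b5*, *Cers3*, *Cpt1b* and *Pld6*, and for the last 3 the count rests on signs close to 0, at -0.09, -0.12 and -0.07. The families of *Agpat6*, *Pla2g2c* and *Ppap2a* had none left, and *Agpat6* and *Agpat4* take different steps despite their shared stem. Of the 5 families in 1 direction, the *Fads*, *Adipor*, *Ano* and *Slc27a* genes were higher, and the *Gdpd* genes were lower with *Gdpd1* above 0 after re-centring.

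**Figure D2:**
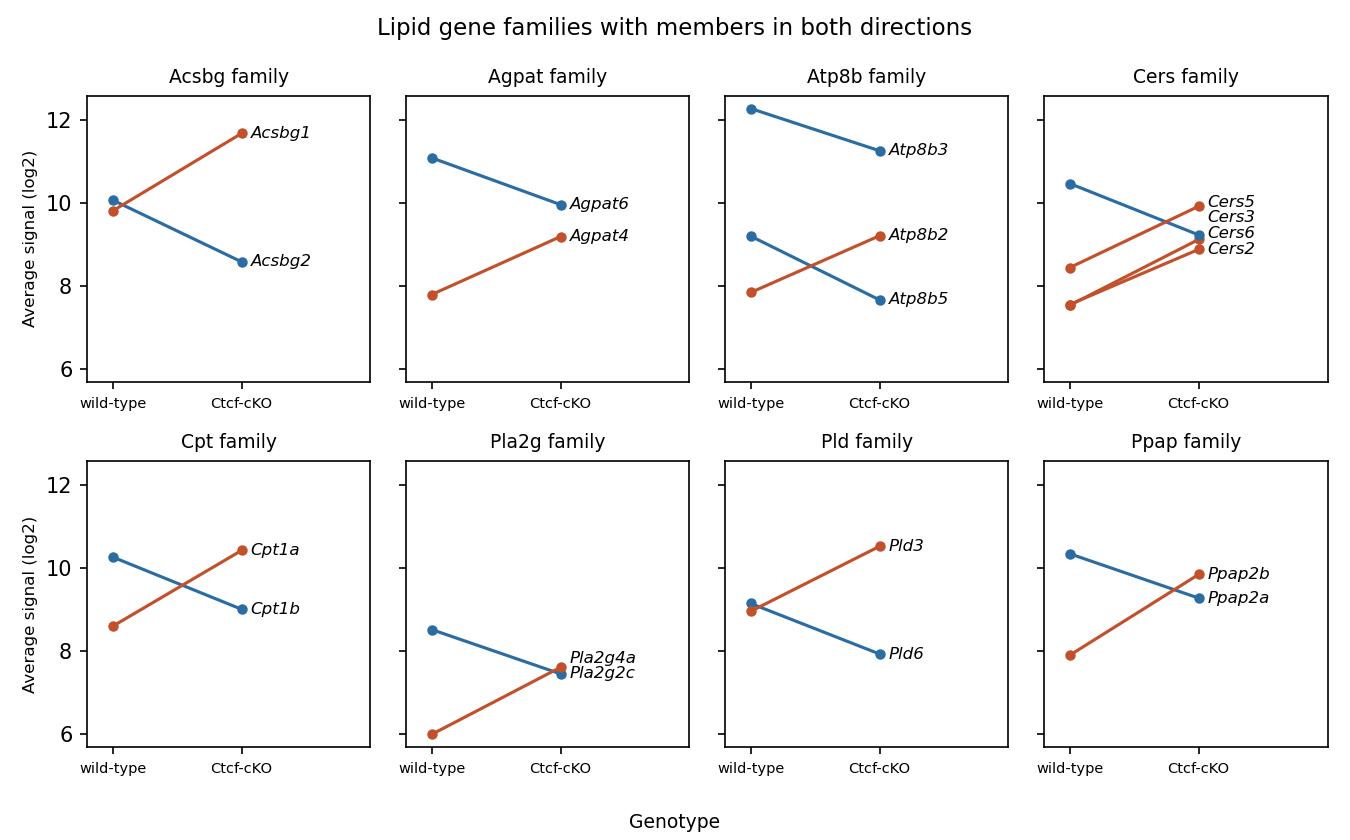
Deposited average log2 signal in wild-type and *Ctcf*-cKO for the 8 families, grouped by symbol stem, with lower and higher members, 1 line per gene. Only the slope of a line is to be read, since the levels of different genes come from different probes. After re-centring, *Agpat6*, *Atp8b3*, *Pla2g2c* and *Ppap2a* are above 0 and the other lower genes drawn are below it, with *Cers3*, *Cpt1b* and *Pld6* close to it.

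The regions before the genes were read for short motifs in the RefSeq promoters of GRCm38.p6, taking the 250 bases upstream of a start. A promoter within 100 bases of the start of the row was found for 16 lower and 47 higher genes. The letters CCAAT, on either strand, were in 7 lower (43.8%) and 20 higher promoters (42.6%) and in 33.8% of all promoters of this length. The GC box GGGCGG was in the same numbers, 7 and 20, and in 32.7% of all. Neither group held the TATA box letters TATAAA, which 12.4% of all promoters have, the core TCACCCCAC of the sterol response element (0.496% of all) or the letters CCAGGGGGC of the CTCF core (0.922% of all). The cyclic AMP response element TGACGTCA was in the promoter of *Cds1*, 6.25% of the lower group and 1.55% of all. The median number of CpG was 12 in lower, 14 in higher and 6 in all promoters, and the median share of G and C 57.8%, 59.6% and 52.4%. So the lower and higher genes were near each other in these letters, and a match or its absence is a description of the window alone.

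The promoters below belong to the lower and the most changed higher gene of 2 families that parted, and are shown because they set the lower and the higher isoform side by side. Capitals mark CCAAT and the GC box on either strand, and where GC boxes overlap the capitals run on. The *Cers3* promoter, chr7:66743254-66743503 on the plus strand, has 6 CpG and 49.6% G and C and no motif searched, while the *Cers6* promoter, chr2:68861191-68861440 on the plus strand, has 23 CpG, 70.4% G and C and 1 CCAAT. For *Pld6*, chr11:59787658-59787907 on the minus strand, there are 14 CpG, 61.6% G and C, 1 CCAAT and 2 GC boxes, and for *Pld3*, chr7:27553219-27553468 on the minus strand, 20 CpG, 66.4% G and C and 4 GC boxes.
Cers3: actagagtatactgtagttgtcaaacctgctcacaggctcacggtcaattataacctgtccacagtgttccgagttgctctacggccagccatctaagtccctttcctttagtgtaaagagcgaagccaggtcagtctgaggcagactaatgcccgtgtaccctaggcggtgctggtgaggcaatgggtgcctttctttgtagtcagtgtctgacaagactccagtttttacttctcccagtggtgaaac
Cers6: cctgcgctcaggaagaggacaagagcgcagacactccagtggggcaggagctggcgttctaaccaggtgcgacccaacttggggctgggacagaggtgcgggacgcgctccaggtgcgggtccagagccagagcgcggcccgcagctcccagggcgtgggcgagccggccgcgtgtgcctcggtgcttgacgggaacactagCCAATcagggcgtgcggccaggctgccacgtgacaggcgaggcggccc
Pld6: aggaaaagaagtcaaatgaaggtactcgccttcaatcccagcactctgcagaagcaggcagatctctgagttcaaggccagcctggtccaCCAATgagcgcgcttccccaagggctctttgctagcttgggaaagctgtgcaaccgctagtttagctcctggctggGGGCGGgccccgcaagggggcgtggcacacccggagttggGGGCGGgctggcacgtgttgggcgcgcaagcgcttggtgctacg
Pld3: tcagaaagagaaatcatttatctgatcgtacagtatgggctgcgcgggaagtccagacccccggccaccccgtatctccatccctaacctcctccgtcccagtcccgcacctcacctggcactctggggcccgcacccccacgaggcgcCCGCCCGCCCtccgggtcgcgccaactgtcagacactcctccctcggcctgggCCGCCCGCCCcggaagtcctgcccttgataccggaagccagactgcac

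Other rows of the table lie on the same ground as these genes. At 24 of the 105, 30 other rows overlap, of which 1 is coding: *Ctsa*, a lysosomal protease on the strand opposite *Pltp*, averaged 7.36 in wild-type testis and 9.18 in *Ctcf*-cKO. The other 29 are non-coding rows at 23 genes, 22 higher and 1 lower. All 26 on the strand of the lipid gene had its direction, so they may be no separate measurements. The row inside *Acsbg1* averaged 7.01 in wild-type mice and 9.24 in *Ctcf*-cKO, the row at *Cpt1a* 6.68 and 8.43, and the row at the lower gene *Pde3b* 6.75 and 5.47. These 3 repeat the direction of their genes. Of the 3 rows on the opposite strand, those at *Adipor1* and *Scd2* were higher like their genes, at 6.05 and 7.13 and at 4.64 and 6.03. The row opposite *Agmo* averaged 6.95 in wild-type against 5.70 in *Ctcf*-cKO and so went against *Agmo*, although its difference of -1.25 is near 0 after re-centring. *Fads1* and *Fads2* are 81.4 kb apart on chromosome 19, and *Gpd1* and *Cers5* 8.50 kb apart on chromosome 15, each pair higher.

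*Mir6993*, a microRNA inside *Fads1* at chr19:10191375-10191439 on the plus strand, averaged 8.42 in wild-type testis and 9.54 in *Ctcf*-cKO. Its mature forms are given here from RefSeq GRCm38.p6 because they lie within the gene with the largest difference, with the seed of bases 2 to 8 in capitals. Whether the probes read the microRNA or the transcript of *Fads1* was not tested.
mmu-miR-6993-5p: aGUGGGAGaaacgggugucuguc
mmu-miR-6993-3p: cUUGCGUUuguuuccucacag

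The genes were also described by component and function terms, notes of expression and chromosomes. The component and function terms come from the Gene Ontology, as do the terms of the annotation rule. Shares above the background are thus not independent of the selection and serve as description only. A mitochondrial term was given to 29 of the higher genes (38.7%) and 8 of the lower (26.7%), against 14.3% and 3.46% of the higher and lower coding genes with a process term. For the endoplasmic reticulum the counts were 26 (34.7%) and 10 (33.3%), against 11.6% and 2.32%. Lipid oxidation takes place largely in the former and lipid synthesis largely in the latter. Peroxisome terms were given to 6 higher (8.0%) and 2 lower genes (6.67%), against 1.78% and 0.207%. Oxidoreductase terms were on 14 higher genes (18.7%) and 1 lower gene (3.33%), against 8.61% and 1.39%, so the background has a like gap. Hydrolase terms were on 14 higher (18.7%) and 14 lower genes (46.7%), against 10.9% and 5.78%, and transferase terms on 15 (20%) and 8 (26.7%), against 10.6% and 5.27%. A note of expression in testis in UniGene was on 63 higher (84%) and 28 lower genes (93.3%), against 79.8% and 84.6%. Acrosome terms were on 2 lower genes (6.67%) and 0 higher ones, against 2.74% and 0.31%. The genes lie on 20 chromosomes, at most 9 on any of them.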

How the data were processed

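The members and the lists of roles and cell types were chosen with earlier results of these data known. The authors' deposited table holds, per transcript cluster, the bi-weight average of log2 signal in each genotype, a linear fold, p and adjusted p, and is limited to a fold of 2 and a p of 0.05. Only the averages were used, and the columns of fold, p and adjusted p were not. Decimal commas were read as points. The table has 0 columns of single arrays, so no errors and no tests were computed. By the submitters' notes, arrays were processed with RMA in Affymetrix Expression Console 1.4.1 and compared in Transcriptome Analysis Console 3.0 on mm10.

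A difference is the *Ctcf*-cKO average minus the wild-type average, and carries the rounding of the averages to 2 decimals. The fold is 2 raised to its size. Genes were counted once by their first symbol, and the background is every coding gene with a process term. The linear signal summed for a cell type is 2 raised to each average.

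Listed genes were looked up through the symbols and synonyms of RefSeq, so that old and new names count once. This step, the motifs, the choice of promoters to print and the counts after re-centring were chosen after seeing the data. All 105 genes matched RefSeq, 7 of them under a newer symbol. A promoter was the one nearest to the 5′ end of the row, within 100 bases, and motifs were searched on both strands with overlaps allowed.

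Genes named by rule were the 8 with the largest difference in each direction, up to 4 of each role list, the 3 smallest, the 3 with the highest average in each genotype and members of families in both directions or with other rows at their locus, 69 in all. Other genes were named after their values were seen. The functions were tested on simulated data. Computations used Python 3.11.15, pandas 2.3.3, numpy 2.4.6, scipy 1.17.1 and matplotlib 3.10.9.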

Additional observations from a re-analysis of the deposited data

How the results depend on the processing

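No paired analysis was possible because the table holds group averages only, although the labels of each genotype share the mouse numbers 1 to 3. Leaving out each mouse and a replicate block were not run for the same reason.

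Among the settings tried, a linear fold of 3 gave 5 lower and 28 higher genes, a lower share of 15.2% against 43.5% for the coding genes with a process term, which also give the shares set against those below. The class Coding alone gave 12 lower and 15 higher genes, a lower share of 44.4% against 72.7%. In the class Complex alone, which holds 78 of the 105 genes, the coding genes with a process term had a lower share of 48.0%. With the sterol, hormone and lysosome genes kept, the higher genes numbered 120. Taking the median of all rows as 0 gave medians of -0.12 for the lower and 2.62 for the higher genes. Counts after re-centring were added after seeing the data: past a fold of 2 there were 0 lower genes, a lower share of 0% against 0.232%, and by sign alone the lower share was 19% against 46.2%. All rows were selected for their fold, so their median is not that of the array. Metabolic terms alone gave 24 lower and 64 higher genes. A signal of at least 6 and rows counted one by one, and for the medians also the largest row of a gene, could change nothing, since all 105 genes have 1 row and reach that signal.

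The averages come without the spread between mice, and genes that changed by less than a fold of 2 are not analysed here. Annotation decides which genes count, and some listed lipid genes were not taken by it.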
